A study of Mus musculus with 32 samples.

Results

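The genes described here are the mouse cadherins and non-clustered protocadherins, 35 of the 51912 genes in the deposited table, measured by RNA sequencing of nuclei sorted from peeled gut muscle with its myenteric plexus. They were chosen by symbol alone, as the protein-coding genes called Cdh or Pcdh followed by a number (with Pcdh11x), and they comprise 23 cadherins and 12 protocadherins. C57BL/6 mice kept specific pathogen free had received AAV9-CaMKII-EGFPKASH intravenously 5 weeks before, so all groups share this virus, in which a CaMKII promoter drives EGFP bound to the nuclear envelope. Following the labels, sorted nuclei with EGFP are termed neuronal, and those without it non-neuronal. Of each sort there were 4 libraries from colon and 4 from small intestine (SI) of mice held at the University of Bern, and 4 from colon and 4 from SI of mice held at the Francis Crick Institute, which makes 8 groups and 32 libraries. The labels do not say how many animals a library holds, or whether the numbers mark separate animals, so the p-values measure only the spread between these libraries.

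Cadherins are calcium-dependent adhesion proteins of the cell membrane. Classical cadherins bind the same or a related cadherin on the neighbouring cell and are anchored to actin through catenins, whereas the non-clustered protocadherins bind more weakly, lack the catenin anchor and are best known from the developing nervous system. In the gut, Cdh1 (E-cadherin) and Cdh17 join epithelial cells, Cdh5 (VE-cadherin) joins endothelial cells, and Cdh2 (N-cadherin) is carried by neurons and by their migrating precursors.

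The 16 Bern libraries held 2394481 to 4618379 rounded estimated counts each, and the 16 Crick libraries 3788120 to 8350833. Of the 35 genes, 20 to 28 had a count in a Bern library and 29 to 35 in a Crick library. The sum of 10 pan-neuronal markers was 2110 to 5049 CPM (counts set to one library size by TMM scaling) in the neuronal libraries and 45.2 to 1525 CPM in the non-neuronal ones. All 10 were higher in neuronal nuclei. In the negative gate their sum reached 768 to 1525 CPM in the 4 Bern colon libraries, with 1525 and 1462 CPM in numbers 1 and 2, and 773 CPM in Bern SI 1, where the other 3 libraries of the group had 45.2 to 83.8 CPM. Markers of interstitial cells of Cajal, which pace the contractions of the gut, were not confined to the negative gate: in SI their sum was 673 to 2523 CPM in Bern and 1299 to 2058 CPM in Crick neuronal nuclei, against 350 to 1249 CPM in Bern and 261 to 967 CPM in Crick non-neuronal nuclei. Over all 32 libraries 4 of these 5 markers were lower and 1 higher in neuronal nuclei, but within SI none was lower and 2 were higher in each facility. The sums include Etv1, which had 425 to 801 CPM in Bern and 422 to 685 CPM in Crick SI neurons. In non-neuronal SI nuclei Etv1 had 62.9 to 179 CPM in Bern and 30.1 to 156 CPM in Crick. Kit had 81.5 to 609 CPM in neuronal and 54.8 to 481 CPM in non-neuronal nuclei of Bern SI, which overlapped. In Crick SI it had 365 to 584 and 44.4 to 287 CPM, which did not. Ano1 overlapped between the sorts in SI of both facilities. Mitochondrially encoded transcripts took 0.423% to 23.6% of counts. Bern colon non-neuronal 1 and 2, Bern SI non-neuronal 1, Crick SI non-neuronal 2 (23.6% mitochondrial), Crick SI neuronal 2 (15.99%) and Crick colon non-neuronal 3 were set aside together as 6 libraries that stand apart, a choice known from an earlier analysis of these data, and results without them are given where they differ. Crick colon non-neuronal 3 did not stand out by the macrophage markers used here (118 CPM, the other 3 libraries of its group having 118 to 154 CPM).

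All 35 genes had at least 9 libraries with a count, but their levels covered a wide range, shown in the heat map of all libraries. The summed level of the family was 2014 ± 286 CPM in Bern and 2030 ± 335 CPM in Crick colon neurons, and 3005 ± 315 CPM in Bern and 2709 ± 218 CPM in Crick SI neurons (SD, n = 4 each). Non-neuronal groups summed to means of 836 to 1292 CPM. In neuronal nuclei Pcdh15, Pcdh9, Pcdh7, Pcdh1 and Cdh2 made up 81.0% of the family's CPM. Per kilobase of exon, the mean level in the 16 neuronal libraries was highest for Pcdh9 (52.8 CPM per kb), followed by Pcdh15 (32.1), Pcdh7 (31.5), Pcdh1 (31.0) and Cdh2 (30.9 CPM per kb), the last 4 of which lay close together. In non-neuronal nuclei the order per kb began with Pcdh7 (30.6 CPM per kb), the mesenchymal cadherin Cdh11 (14.2), Cdh1 (13.0), Cdh19 (12.5) and Cdh17 (10.7 CPM per kb). Cdh15 (M-cadherin of muscle), Cdh16 (a kidney cadherin), Cdh22, Cdh26 and Pcdh8 had 22 to 49 counts over all 32 libraries, never exceeded 2.43 CPM in a library and were not tested.

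**Figure D1:**
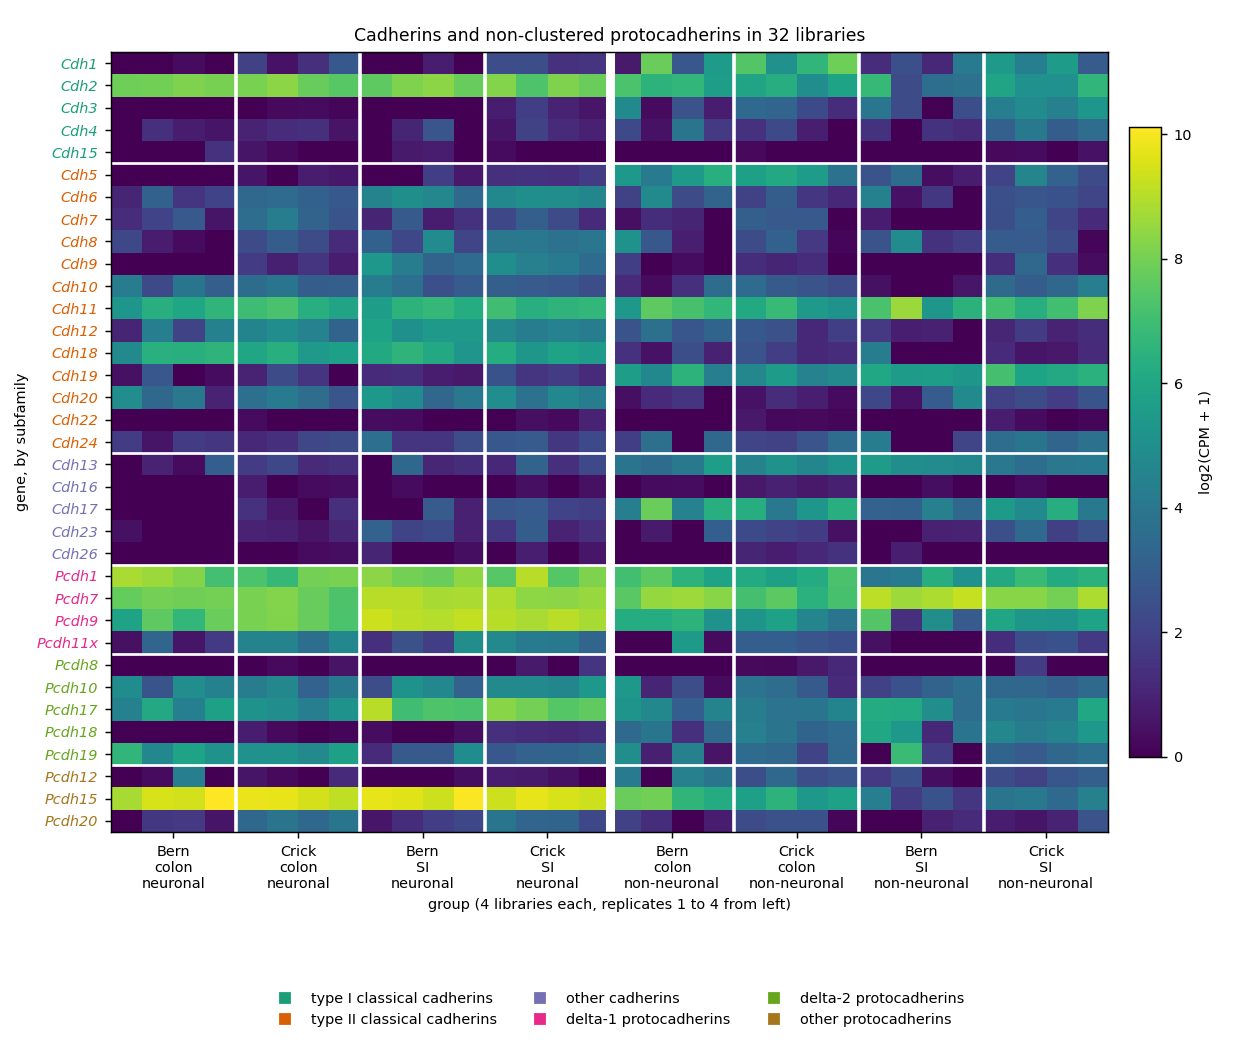
Level of each of the 35 genes, as log2(CPM + 1), in each of the 32 libraries; columns are grouped by facility, segment and sort with neuronal nuclei on the left, and gene names are coloured by subfamily. Pcdh15, Pcdh9, Pcdh7, Pcdh1 and Cdh2 are high throughout the neuronal libraries, and Cdh1, Cdh5, Cdh17, Cdh19 and Pcdh18 are near 0 there.

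The first comparison asked which cadherins separate the neuronal from the non-neuronal nuclei. Of the 30 genes that passed the filter on low counts, 13 were higher and 8 lower in neuronal nuclei (edgeR quasi-likelihood test, Benjamini-Hochberg adjusted over all genes tested). Among all 21521 genes tested 43.5% passed, 21.9% as higher and 21.6% as lower, so the sort changed a large share of all genes. The median log2 fold change was 0.84 over the 30 genes and -0.01 over all genes. Since nuclei were sequenced in bulk, fewer nuclei of a type and less RNA per nucleus cannot be told apart.

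Pcdh15, which forms the tip link of inner ear hair cells together with Cdh23, was the most abundant family member in neuronal nuclei in CPM. Its level was 442 to 1106 CPM with a median of 728 in the 16 neuronal libraries, against 2.06 to 248 CPM with a median of 30.9 in the non-neuronal ones. The ranges did not overlap, and the log2 fold change was 4.57 ± 0.25 (SE; adjusted p = 1.646e-17, edgeR). Cdh23 itself was low, with 1.97 ± 2.44 CPM in neuronal nuclei against 2.59 ± 2.90 CPM in non-neuronal ones (SD, n = 16 each), and did not pass.

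Of the type II classical cadherins, a subfamily with several brain members, Cdh18 had 27.2 to 95.1 CPM in neuronal nuclei (median 64.9), against 0 to 17.7 CPM in non-neuronal nuclei (median 1.26). Again every neuronal library lay above every non-neuronal one, and the log2 fold change was 4.86 ± 0.49 (SE; adjusted p = 1.343e-10, edgeR). Its highest non-neuronal value, 17.7 CPM, belonged to Bern SI 1, which also had the pan-neuronal sum of 773 CPM. Cdh12 (3.05 ± 0.40) and Cdh20 (2.93 ± 0.48), further type II cadherins of neurons, rose as well, with adjusted p of 4.541e-08 and 3.233e-06 (log2 fold change ± SE, edgeR). The sorts overlapped in Bern colon for Cdh12, with 1.07 to 21.1 CPM in neuronal and 5.06 to 12.4 CPM in non-neuronal nuclei. Cdh20 overlapped in Bern colon (1.01 to 30.1 and 0 to 1.83 CPM) and Bern SI (9.18 to 40.5 and 0.408 to 27.3 CPM). In Crick neither gene overlapped. Cdh10 (1.65 ± 0.44) and Cdh7 (1.67 ± 0.59) also passed, at adjusted p of 0.002315 and 0.01989. Their groups overlapped in 3 of the 4 strata of facility and segment. Cdh10 reversed to a log2 fold change of -0.21 in the Crick libraries alone, and Cdh7 was lost without Bern SI neuronal 2 (adjusted p = 0.0655, edgeR).

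N-cadherin, Cdh2, was the only type I classical cadherin that was higher in neuronal nuclei. It had 159.6 to 326 CPM in the neuronal libraries (median 253.9) and 4.08 to 152 CPM in the non-neuronal ones (median 58.1). These ranges did not overlap (log2 fold change 2.11 ± 0.28, SE; adjusted p = 4.95e-08, edgeR). The lowest non-neuronal values, 4.08, 11.7 and 13.1 CPM, were the Bern SI libraries 2, 3 and 4, while Bern SI 1 had 109 CPM.

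Delta-1 protocadherins (Pcdh1, Pcdh7, Pcdh9 and Pcdh11x) are grouped by their shared intracellular motifs. Of these, Pcdh9 (358 ± 190 CPM against 50.6 ± 40.8 CPM), Pcdh1 (272 ± 115 against 81.4 ± 46.8 CPM) and Pcdh11x (12.5 ± 10.3 against 5.11 ± 10.7 CPM) rose in neuronal nuclei (mean ± SD, n = 16 each). For Pcdh11x 1 library, Bern colon non-neuronal 3, held 44.0 CPM, and without it the log2 fold change was 3.83 in place of 2.17. Pcdh7 did not pass, with 334 ± 115 CPM in neuronal nuclei, 325 ± 153 CPM in non-neuronal ones and a log2 fold change of 0.10 ± 0.14 (SE). Of the delta-2 group, Pcdh17 (log2 fold change 1.75 ± 0.28) and Pcdh10 (1.24 ± 0.44, SE) rose, and Pcdh18 fell by 6.43 on the log2 scale. Pcdh20 also passed at an adjusted p of 0.03697 (edgeR), but 15 of the 32 fits that left out 1 library lost its call, and Pcdh10 lost it without Bern SI neuronal 2 (adjusted p = 0.0589). Within colon, no delta-2 gene was called higher by sort in either facility, whereas within SI 1 was called higher in each. Mean Pcdh17 in colon was 35.15 ± 17.4 CPM with EGFP and 19.95 ± 8.82 CPM without it. The SI means were 236 ± 128 and 37.4 ± 27.5 CPM (SD, n = 8 each).

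Of the 8 members that fell in neuronal nuclei, Pcdh18 and Cdh3 (P-cadherin) had the largest fitted folds, and Cdh1, Cdh17, Cdh5 and Cdh19 are known from other cell types. Cdh19, known from glia and their precursors, had 0 to 5.63 CPM in neuronal and 19.0 to 141 CPM in non-neuronal libraries, with a log2 fold change of -4.88 ± 0.44 (SE; adjusted p = 1.4e-11, edgeR). Cdh5 had 0 to 2.68 CPM in neuronal and 0.299 to 82.1 CPM in non-neuronal libraries (-5.56 ± 0.61, SE; adjusted p = 2.617e-09, edgeR). Cdh1 (0 to 5.85 against 0.675 to 233 CPM) and Cdh17 (0 to 6.503 against 7.74 to 220.1 CPM) fell too. The enteric glia list, 6 of whose 7 genes were lower, summed to 10.98 to 39.2 CPM in neuronal and 24.0 to 288 CPM in non-neuronal libraries. All 9 endothelial markers and 7 of 8 epithelial ones were lower as well, with neuronal sums of 1.43 to 42.5 CPM and 17.2 to 84.6 CPM, against 56.9 to 1197 CPM and 137 to 12465 CPM in non-neuronal libraries. Cdh3 averaged 0.338 ± 0.679 CPM in neuronal libraries against 11.6 ± 11.8 CPM in non-neuronal ones, and Pcdh18 had 0.457 ± 0.611 and 19.8 ± 16.6 CPM (SD, n = 16 each). The further members that fell were the endothelial protocadherin Pcdh12 and Cdh13 (T-cadherin, which has no intracellular part). In Bern colon neurons, Cdh3, Cdh5, Cdh17 and Pcdh18 had no count at all, so the fitted folds of these 4 genes depend on the prior count. Against a floor of 3 counts over that group, Cdh17 was at least 429.9-fold and Cdh5 at least 230.3-fold lower than in Bern colon non-neuronal nuclei.

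**Figure D2:**
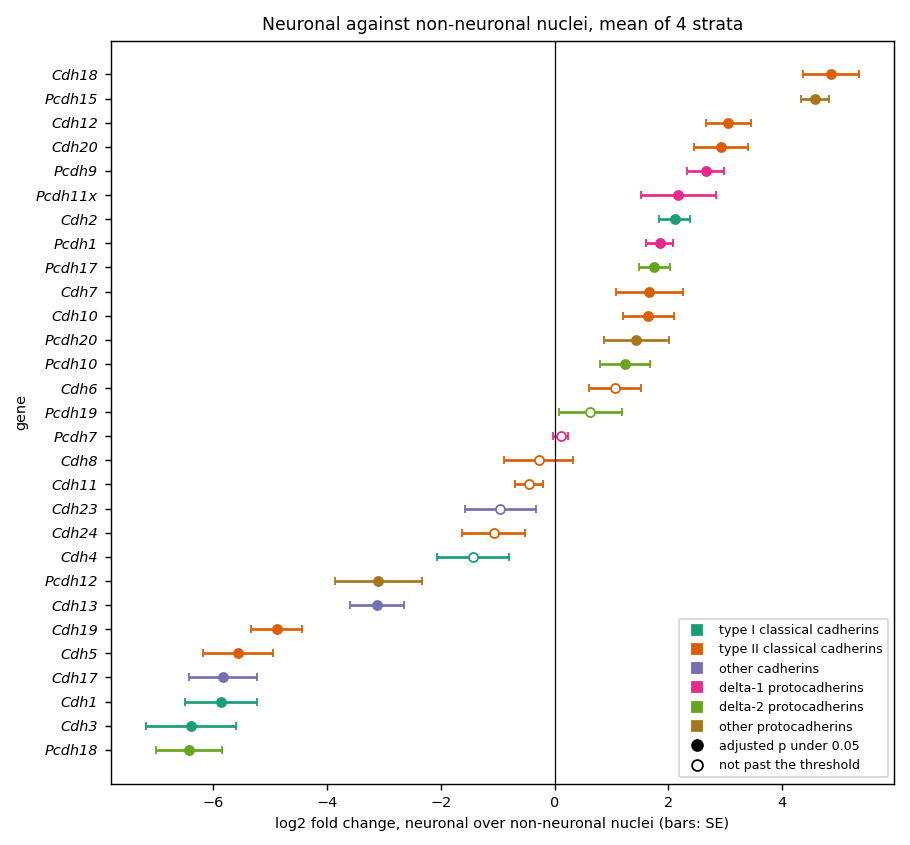
Log2 fold change of neuronal over non-neuronal nuclei (x axis, bars are SE) for 29 tested genes, coloured by subfamily and filled where the adjusted p passed. Cdh18 and Pcdh15 stand at the right end and Pcdh18, Cdh3, Cdh1 and Cdh17 at the left. Cdh9 is left out because a group with no count on each side leaves its average without a usable estimate.

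Intracellular partners of cadherins differed by sort in both directions. Of 14 catenins and junction partners, 5 were higher and 6 lower in neuronal nuclei. The higher ones included the neural catenins Ctnna2 (log2 fold change 3.499 ± 0.33) and Ctnnd2 (2.88 ± 0.32), and the lower ones Ctnna1 (-0.90 ± 0.28), Ctnnb1 (-0.76 ± 0.22) and the actin linker Vcl (-2.81 ± 0.21; SE, edgeR). Among 56 tested entries of the clustered protocadherins 23 were higher and 2 lower. Over all genes tested, 43.5% passed in this comparison, 21.9% as higher and 21.6% as lower.

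The second comparison, colon against SI in neuronal nuclei, found 9 of the 25 genes tested to differ, 1 higher and 8 lower in colon, where 5.51% of all 17419 genes tested passed, 1.97% as higher and 3.54% as lower. The median log2 fold change was -0.68 over the 25 genes and -0.01 over all genes. Cdh9, a type II cadherin known in the mouse brain for matching synaptic partners, fell by 6.64 ± 0.71 on the log2 scale, with Cdh6, Pcdh17, Pcdh9, Pcdh7 and 3 low genes also lower. Pcdh19, an X-linked delta-2 protocadherin whose loss causes an epilepsy in humans, was the member that rose.

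Cdh9 and Cdh6 lie next to each other among the members on chromosome 15, followed by Cdh10, Cdh12 and Cdh18. In GRCm38 coordinates Cdh6 spans chr15:13028701-13173675 on the minus strand and Cdh9 chr15:16728756-16857094 on the plus strand, 3.56 Mb apart. Both were lower in colon neurons, and the 250 bases before their RefSeq starts (GRCm38.p6) are shown because they share the longest run of identical bases among the 231 pairs of the 22 members that have an entry. The run of 15 bases is in capitals; among 32851 promoter windows of the table it occurs in 2, searched on both strands, and it begins 18 bases before the Cdh6 start and 209 bases before the Cdh9 start. It was found after the values were seen and is given as a description, with no site implied. The Cdh9 window ends at 16728914, past the start of the Cdh9 span given above, 16728756. Part of this window therefore lies inside that span, and the distance of 209 bases holds for the RefSeq start only.
Cdh9, chr15:16728665-16728914, plus strand: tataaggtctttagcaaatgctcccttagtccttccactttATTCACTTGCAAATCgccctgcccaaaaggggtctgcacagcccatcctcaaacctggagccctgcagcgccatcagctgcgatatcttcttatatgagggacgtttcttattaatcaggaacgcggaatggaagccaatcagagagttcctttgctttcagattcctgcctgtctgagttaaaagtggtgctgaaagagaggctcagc
Cdh6, chr15:13173676-13173925, minus strand: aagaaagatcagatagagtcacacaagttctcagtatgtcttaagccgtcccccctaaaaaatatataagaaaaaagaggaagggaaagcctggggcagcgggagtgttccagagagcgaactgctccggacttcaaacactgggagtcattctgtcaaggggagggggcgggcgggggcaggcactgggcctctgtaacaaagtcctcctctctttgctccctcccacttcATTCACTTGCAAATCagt

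In colon neurons Cdh9 had 0 CPM in each of the 4 Bern libraries and 2.41, 0.832, 1.84 and 0.713 CPM in the Crick ones. SI neurons had 40.5, 18.5, 8.42 and 10.5 CPM in Bern and 31.97, 20.1, 16.4 and 10.6 CPM in Crick. No colon value reached the lowest SI value (adjusted p over both facilities 5.713e-06, edgeR). Within Bern, Cdh9 was at least 98.05-fold lower in colon against the floor of 3 counts over the group (adjusted p = 0.0001526), and within Crick the log2 fold change was -3.80 ± 0.76 (SE; adjusted p = 0.01348, edgeR). The fold over both facilities rests in part on the Bern group at 0 and so depends on the prior count. In non-neuronal nuclei Cdh9 had no count in any Bern SI library and 0.274 to 9.71 CPM in the Crick SI ones, the highest being Crick SI 2 with 23.6% mitochondrial counts. In colon, non-neuronal nuclei had 2.70, 0, 0.262 and 0 CPM in Bern and 1.47, 1.07, 1.41 and 0 CPM in Crick. Cdh9 was therefore at least 80.81-fold higher in neuronal than in non-neuronal nuclei in Bern SI (adjusted p = 0.00025, edgeR), and at least 3.72-fold lower in Bern colon, where the test did not pass (adjusted p = 0.05605); neither Crick segment passed. For the average over the 4 strata, neuronal over non-neuronal, edgeR returned a log2 fold change of 1.94 that did not pass (adjusted p = 0.9999). This value is not a usable estimate, because Bern colon neurons and Bern SI non-neuronal nuclei both lacked counts. DESeq2 (log2 fold change 1.79, adjusted p = 0.0148) and limma-voom (2.46, adjusted p = 0.000101) called the average over the 4 strata higher in neuronal nuclei.

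Markers of interstitial cells of Cajal moved with the segment in the same libraries. All 5 of the list were lower in colon neurons, and their sum was 273 to 459 CPM in colon neurons against 673 to 2523 CPM in SI neurons. Most of the colon sum was Etv1, at 235 to 445 CPM. Its log2 fold change was -0.67, against -5.55 for Kit, -7.59 for Ano1, -7.94 for Gpr20 and -8.14 for Prkcq (edgeR). Kit, a defining one, had 0.245 to 18.8 CPM in colon neurons and 81.5 to 609 CPM in SI neurons. The SI neuronal library with the highest Cdh9 in each facility, number 1, also had the highest Kit, at 609 CPM in Bern and 584 CPM in Crick. Below these the order of the SI neuronal libraries differed. In Bern, number 4 had 243 CPM of Kit and 10.5 CPM of Cdh9, and number 2 had 103 and 18.5 CPM. In Crick, number 4 had the next highest Kit, 419 CPM, and the lowest Cdh9, 10.6 CPM. In Bern SI non-neuronal 1, Kit was at 481 CPM and Ano1 at 444 CPM, and Cdh9 had no count, which allows up to 1.09 CPM. The part of these markers in the segment difference of Cdh9 and of the other members was not tested. The level of Cdh9 beside Kit is plotted for all libraries.

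**Figure D3:**
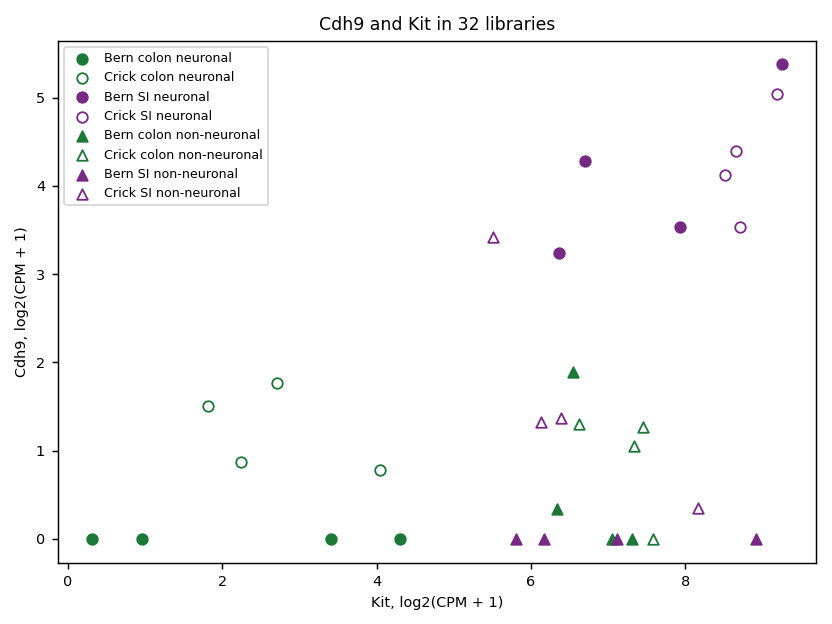
Cdh9 (y axis) against Kit (x axis), both as log2(CPM + 1), in the 32 libraries; circles are neuronal and triangles non-neuronal nuclei, green is colon and purple SI, and filled symbols are Bern. SI neuronal libraries lie at the upper right with 8.42 to 40.5 CPM of Cdh9, colon neuronal libraries at the lower left, and Bern SI non-neuronal libraries at 0 on the y axis with Kit up to 481 CPM.

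Cdh6 in colon neurons had 1.07, 7.74, 1.96 and 3.04 CPM in Bern and 9.41, 10.6, 7.84 and 5.85 CPM in Crick. In SI neurons it had 21.8, 31.7, 24.9 and 9.94 CPM in Bern and 25.1, 32.1, 30.7 and 23.9 CPM in Crick. Segments did not overlap within either facility, and the log2 fold change was -2.20 ± 0.41 (SE; adjusted p = 0.001679, edgeR). The 3 other members of the chromosome 15 stretch did not pass: Cdh10 (10.4 ± 4.84 CPM in colon neurons, 8.19 ± 4.68 CPM in SI neurons), Cdh12 (15.8 ± 10.4 and 32.4 ± 14.1 CPM) and Cdh18 (65.4 ± 23.6 and 60.9 ± 19.5 CPM; SD, n = 8 each). For Cdh12, Bern neurons had 1.07, 19.2, 3.18 and 21.1 CPM in colon and 56.6, 32.3, 43.2 and 43.7 CPM in SI, whereas Crick neurons averaged 20.5 ± 9.08 CPM in colon and 20.9 ± 3.57 CPM in SI (SD, n = 4 each). The Bern SI neuronal libraries lay above every other library for Cdh12, but neither the segment difference within Bern (adjusted p = 0.07884) nor its interaction with facility (-1.89 ± 0.86, SE; adjusted p = 0.7433, edgeR) passed.

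Pcdh17, a delta-2 protocadherin of axons, was at 20.8, 67.6, 19.6 and 53.3 CPM in Bern and 35.7, 29.8, 18.9 and 35.7 CPM in Crick colon neurons. SI neurons had 515, 129, 159.5 and 145 CPM in Bern and 314, 253, 171 and 201 CPM in Crick. The lowest SI library thus lay above the highest colon library (log2 fold change -2.77 ± 0.32, SE; adjusted p = 6.924e-06, edgeR). Pcdh17 and Cdh9 were the members called within both facilities, Pcdh17 at -2.52 ± 0.45 in Bern and -3.02 ± 0.46 in Crick.

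Pcdh9 had 56.6, 193, 102 and 221 CPM in Bern and 271, 289.8, 217 and 149.9 CPM in Crick colon neurons. In SI neurons it had 657, 542, 508 and 573 CPM in Bern and 522, 453, 536 and 436 CPM in Crick. No library of one segment overlapped the other (-1.54 ± 0.22 on the log2 scale, SE; adjusted p = 0.0001219, edgeR). Pcdh7 was lower by a smaller step, at 239 ± 43.3 CPM in colon neurons against 428 ± 76.1 CPM in SI neurons (SD, n = 8 each), a log2 fold change of -0.84 ± 0.17 (SE; adjusted p = 0.002804, edgeR). Pcdh7 shares 21.1% of its exonic bases with a gene on the opposite strand, 4932441J04Rik, and the strand setting of the counting is not given in the sources used here. That gene had 602 counts over all libraries, against 46494 for Pcdh7.

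Pcdh19 was higher in colon neurons, with 98.9, 25.6, 57.7 and 35.8 CPM in Bern and 33.3, 35.0, 26.3 and 52.2 CPM in Crick. In SI neurons it had 1.32, 6.24, 6.12 and 28.9 CPM in Bern and 5.73, 8.06, 8.48 and 10.3 CPM in Crick. The Bern SI library at 28.9 CPM, number 4, overlapped the colon values, and the Crick groups were apart. The log2 fold change was 2.26 ± 0.45 (SE; adjusted p = 0.003278, edgeR).

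**Figure D4:**
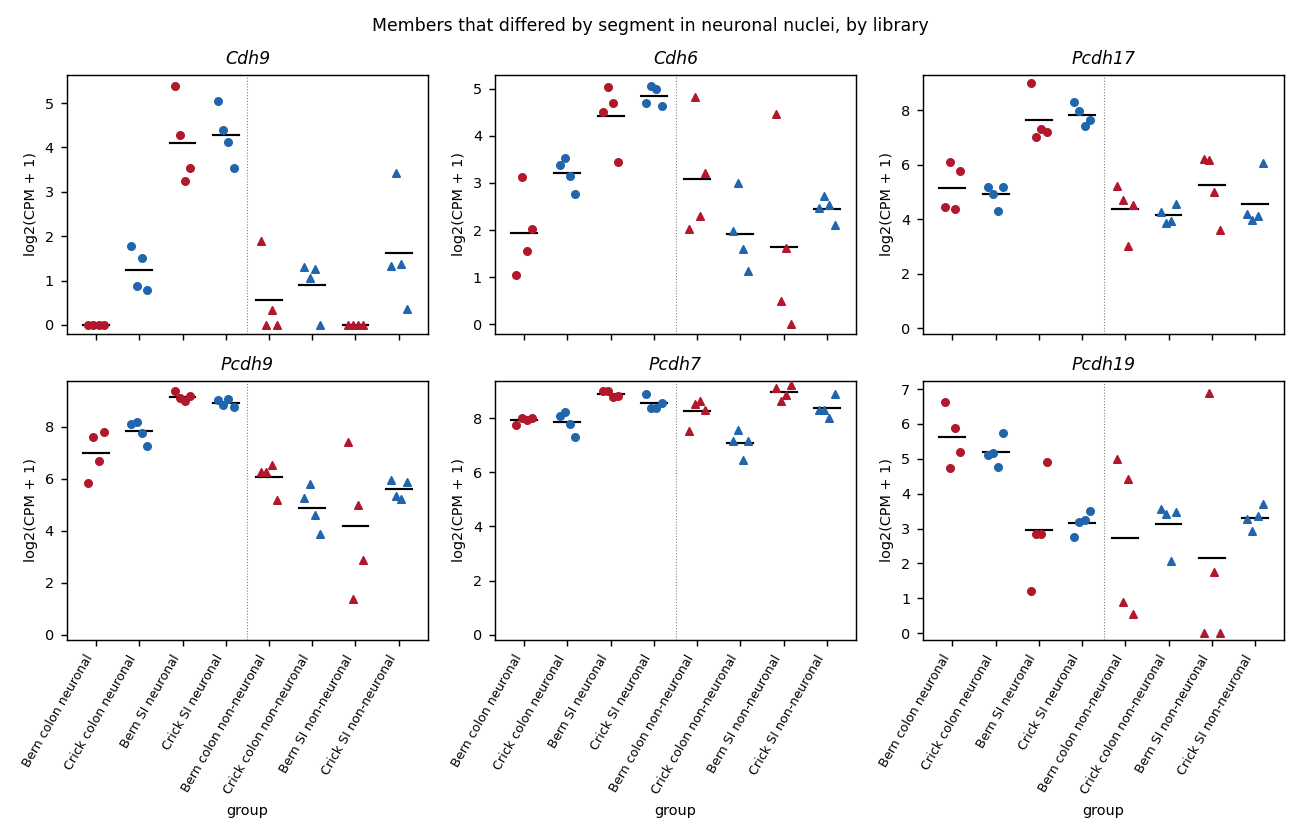
Level, as log2(CPM + 1), of 6 genes that differed between colon and SI neurons in each library; red is Bern and blue Crick, circles are neuronal and triangles non-neuronal nuclei, and bars are group means of the plotted values. In neuronal nuclei Cdh9, Cdh6, Pcdh17, Pcdh9 and Pcdh7 lie lower in colon than in SI and Pcdh19 lies higher; the non-neuronal groups scatter more.

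The 3 low genes that passed were Cdh23 (0.470 ± 0.463 CPM in colon neurons, 3.47 ± 2.72 CPM in SI neurons), Cdh8 (2.62 ± 2.43 and 12.7 ± 8.09 CPM) and Cdh17 (0.485 ± 0.739 and 3.16 ± 2.77 CPM; SD, n = 8 each). Cdh8, a type II cadherin, lost its call in 5 of the 16 fits that left out 1 library (adjusted p 0.0509 to 0.0831), and Cdh17 in 14 of 16 (0.0560 to 0.167; edgeR). Cdh19 had 1.65 ± 2.13 CPM in colon neurons, 1.86 ± 1.33 CPM in SI neurons and did not pass, and Cdh5 had too few counts in neuronal libraries to be tested. Pcdh15, Cdh2 and Pcdh1, among the most abundant members, did not pass either, with log2 fold changes of -0.06 ± 0.18, 0.02 ± 0.18 and -0.22 ± 0.28 (SE). In Bern 7 genes were called (1 higher, 6 lower; of all genes 4.17%, or 1.31% higher and 2.86% lower) and in Crick 2 (both lower; of all genes 0.913%, or 0.58% lower); whether the segment difference itself differed by facility is tested below. No catenin or junction partner of the 14 passed in this comparison.

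In non-neuronal nuclei, 5 of the 29 genes tested differed between colon and SI, 3 higher and 2 lower in colon, where 9.32% of all 19164 genes passed, 5.79% as higher and 3.54% as lower. Pcdh15 had 219, 248, 97.2 and 73.3 CPM in Bern and 51.5, 92.0, 41.4 and 54.4 CPM in Crick colon. In SI it had 19.2, 2.45, 4.79 and 2.06 CPM in Bern and 13.8, 16.03, 9.95 and 20.4 CPM in Crick. No SI library reached the lowest colon library (log2 fold change 3.18 ± 0.43, SE; adjusted p = 8.744e-05, edgeR). Of the 10 pan-neuronal markers 4 were also higher in colon, where their sum was 149 to 1525 CPM, against 45.2 to 773 CPM in SI, and their part in the result was not tested. Without the 6 libraries that stand apart the fold of Pcdh15 was 3.42 (adjusted p = 0.001076).

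Cdh5 rose in non-neuronal colon, with 40.8, 16.5, 43.7 and 82.1 CPM in Bern and 52.8, 68.7, 47.2 and 12.9 CPM in Crick. SI libraries had 5.07, 11.01, 0.299 and 0.773 CPM in Bern and 3.20, 23.6, 7.96 and 4.11 CPM in Crick. The segments were apart in Bern and overlapped in Crick through 1 library on each side (2.75 ± 0.64 on the log2 scale, SE; adjusted p = 0.008865, edgeR). The 9 endothelial markers summed to 395 to 1197 CPM in colon and 56.9 to 224 CPM in SI, and 6 of them were higher in colon. Cdh1 was at 101 ± 94.5 CPM in colon and 17.4 ± 18.3 CPM in SI (SD, n = 8 each; log2 fold change 2.74 ± 0.76, SE; adjusted p = 0.02479, edgeR), beside epithelial sums of 1494 to 12465 CPM and 137 to 927 CPM. Its call was lost without Bern colon 2 (adjusted p = 0.102), Crick colon 4 (0.0506) or Crick SI 2 (0.0554). The part of the endothelial and epithelial transcripts in these differences was not tested.

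Pcdh7 was lower in non-neuronal colon, at 228 ± 117 CPM, than in SI, at 421 ± 124 CPM (SD, n = 8 each; log2 fold change -1.05 ± 0.22, SE; adjusted p = 0.003949, edgeR), but did not pass without the 6 libraries (adjusted p = 0.0661, edgeR). Cdh20 was lower as well (0.793 ± 0.655 CPM in colon, 6.59 ± 8.58 CPM in SI), a call lost in 11 of 16 fits without 1 library. Cdh19 did not pass (38.2 ± 24.8 CPM in colon, 69.1 ± 32.5 CPM in SI; -0.91 ± 0.34, SE; adjusted p = 0.09605, edgeR), except without Bern colon 3 (0.0362). Without 1 library the count of 5 became 9 (Bern SI 1), 8 (Bern SI 3) or 3 (Crick colon 4, and likewise Crick SI 2). Within Bern 4 genes were called, Pcdh15, Cdh5, Cdh17 and Pcdh11x, all higher in colon (10.1% of all genes, 6.51% as higher), and within Crick none (0.256% of all genes, with 6 members at an unadjusted p under 0.05).

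Whether the segment difference itself differed between the sorts was tested as an interaction, neuronal minus non-neuronal. Of the 30 genes 7 passed, all lower, where 6.48% of all genes passed, 5.39% as lower, and the median over all genes was -0.22. Pcdh15 led by its adjusted p, with -3.26 ± 0.44 (SE; adjusted p = 1.195e-05, edgeR): colon and SI differed in non-neuronal nuclei, as given above, while its level was 749.6 ± 206 CPM in colon neurons against 777 ± 144 CPM in SI neurons (SD, n = 8 each). Cdh9 (-8.09 ± 1.54), Cdh5 (-6.24 ± 1.22), Cdh17 (-5.69 ± 1.18) and Cdh12 (-3.10 ± 0.76) kept their call without any 1 library, though the fits of Cdh9, Cdh5 and Cdh17 include groups with no count. Pcdh17 (-1.86 ± 0.54) lost its call in 5 of 32 such fits and without the 6 libraries (-1.65; adjusted p = 0.1236, edgeR), and Pcdh11x (-4.44 ± 1.32) in 8. Pcdh11x, an X-linked delta-1 protocadherin, had 44.0 CPM in Bern colon non-neuronal 3 and at most 0.231 CPM in the other 3 libraries of that group, and without that library its interaction was -1.12 (adjusted p = 0.743, edgeR). Without Bern SI non-neuronal 1 the count was 12 in place of 7. Cdh19 did not pass (0.85 ± 0.80). Cdh6 (-2.35 ± 0.92, adjusted p = 0.125), Pcdh9 (-1.41 ± 0.62, 0.1884) and Pcdh19 (2.94 ± 1.12, 0.113, edgeR) did not either. Pcdh7, Cdh8 and Cdh23, which were also called by segment in neuronal nuclei, had no call here. For all of these except Cdh19, the segment difference is not shown to be particular to neuronal nuclei. Pcdh7 was lower in colon in both sorts, as given above.

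**Figure D5:**
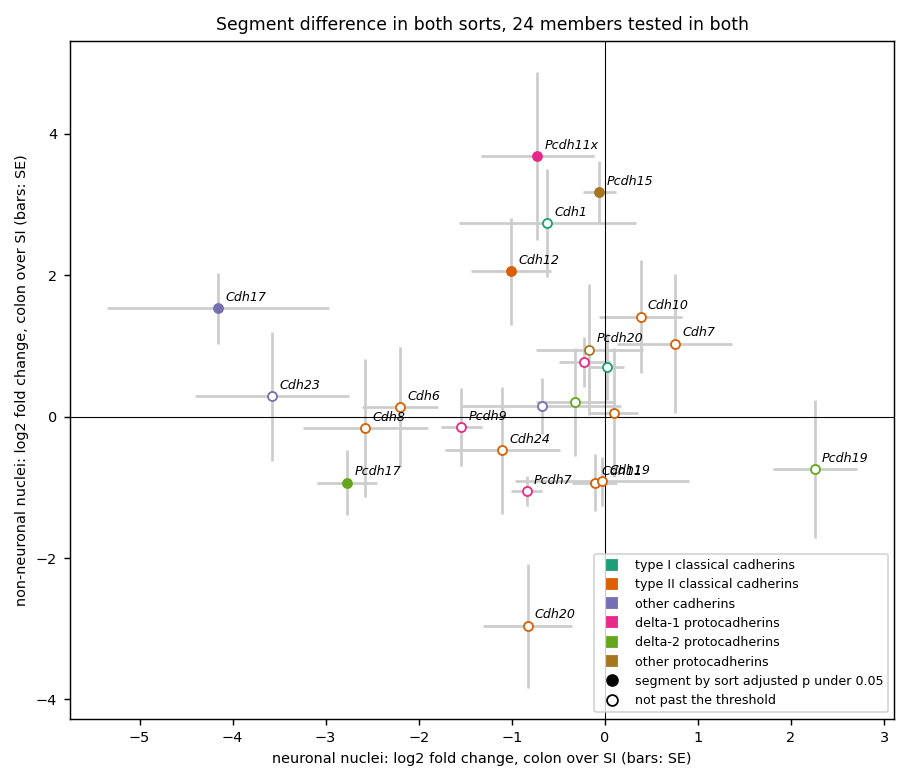
Log2 fold change of colon over SI in neuronal nuclei (x axis) against that in non-neuronal nuclei (y axis), with SE bars, for the 24 genes tested in both; colours mark subfamilies and filled points those whose segment by sort interaction passed. Pcdh15 lies near 0 on the x axis and at 3.18 on the y axis, and Pcdh17 lies at -2.77 on the x axis; Cdh9 and Cdh5 are absent because each was tested in only 1 of the 2 fits.

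The series title names the housing facility as a variable, and Bern was compared with Crick last. In colon neurons 1 of 25 genes passed (3.09% of all genes, 1.19% as lower): Cdh9, with no count in Bern and 1.45 ± 0.818 CPM in Crick (SD, n = 4), at least 7.29-fold lower in Bern (adjusted p = 0.02353, edgeR). The Crick libraries held 4 to 10 counts each, and the call was lost without Crick colon neuronal 1, 2 or 3 (adjusted p 0.0851, 0.0585 and 0.0576), so it stands on few reads. Pcdh20 (1.205 ± 1.12 CPM in Bern, 11.8 ± 2.58 CPM in Crick) and Pcdh11x (3.01 ± 4.03 and 20.2 ± 5.91 CPM; SD, n = 4 each) were lower in every Bern library but had adjusted p of 0.05134 and 0.09758. Cdh19 had 1.56 ± 2.72 CPM in Bern and 1.74 ± 1.78 CPM in Crick.

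In SI neurons none of the 25 genes passed between facilities (0.683% of all genes), with 2 at an unadjusted p under 0.05 by edgeR and none called by DESeq2 or limma-voom. Cdh9 had 19.5 ± 14.7 CPM in Bern and 19.8 ± 9.04 CPM in Crick, and Cdh19 1.05 ± 0.432 and 2.66 ± 1.48 CPM (SD, n = 4 each). The interaction of segment with facility in neuronal nuclei likewise gave none (0.00574% of all genes; 3 at an unadjusted p under 0.05 by edgeR, none called by DESeq2 or limma-voom). Its largest value was that of Cdh9, -5.66 ± 1.45 (SE; adjusted p = 0.4225, edgeR), so the segment difference of Cdh9 was not shown to differ between facilities.

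In non-neuronal nuclei 3 of 29 genes differed between facilities, 1 higher and 2 lower in Bern (9.29% of all genes, 4.35% higher and 4.94% lower). Pcdh7 was higher in Bern (411 ± 132 CPM, against 239 ± 126 CPM in Crick; log2 fold change 0.85 ± 0.22, SE; adjusted p = 0.01483, edgeR). Cdh10 was lower, with 1.35, 0.214, 1.57 and 10.9 CPM in Bern colon and 0.362, 0, 0 and 0.516 CPM in Bern SI, against 3.94 to 10.5 CPM in Crick colon and 6.80 to 19.3 CPM in Crick SI. Cdh7 was at 0.451 ± 0.579 CPM in Bern and 4.45 ± 2.69 CPM in Crick (SD, n = 8 each; adjusted p = 0.03376, edgeR). All 3 calls were lost without the 6 libraries that stand apart (adjusted p 0.0587, 0.0796 and 0.0935), and that of Cdh7 in 7 of 16 fits without 1 library. Cdh5 (25.04 ± 28.6 CPM in Bern, 27.5 ± 25.3 CPM in Crick) and Cdh19 (48.3 ± 22.8 and 59.0 ± 40.4 CPM) did not pass. Bern libraries also had fewer counts and fewer detected genes, as given above, and facility and these differences between the libraries cannot be told apart.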

How the data were processed

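Nuclei RNA was sequenced from 32 libraries in 8 groups of 4. The authors deposited unscaled expected counts per gene, which the column names show to be gene results of RSEM for each library, and 10.8% of the values were not whole. RSEM 1.3.0, STAR 2.5.2, DESeq2 1.10.1 and the build GRCm38 are named, with no role or order, per the submitters' processing notes. Gene names came from GENCODE M21 for 51719 of 51912 identifiers; 193 did not match. The values were rounded to whole counts and fitted with edgeR 4.0.16 (quasi-likelihood, TMM scaling, filterByExpr, Benjamini-Hochberg adjustment over all genes tested, threshold 0.05) in R 4.3.3. Each sort had its own fit of 16 libraries, except for the comparison of sorts and its interaction with segment, which used all 32. CPM are TMM-scaled, and CPM per kb divide by the length of the union of exons. A floor of 3 counts over a group stands in where a group had none. The SE given with a log2 fold change is its absolute value over the square root of the quasi-likelihood F statistic, an approximation. Where a group had no count, this SE depends on the prior count as the fold change does, and it does not bound the fold. The scripts were tested on simulated data.

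Statistics were given for members past the threshold, at most 8 per direction by size of fold change, and for Cdh9, Cdh5 and Cdh19 wherever tested; other members are named with their levels. Where a member outside this rule carries a fold change, it was chosen after its values were seen. The members and all gene lists were chosen with earlier results of these data known. Alternatives tried were DESeq2 1.42.0 as the test and its size factors, limma-voom (limma 3.58.1), no filter on low counts, all libraries in 1 fit, each facility alone, the replicate number as a block, and leaving out each library or the 6 that stand apart.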

Additional observations from a re-analysis of the deposited data

Results flagged for a closer look

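Among 148 sets of 4 libraries with a mean of at least 5 CPM, 14 held 1 library whose gap to the other 3 exceeded Dixon's 95% critical value as a share of the range. Chance flags about 1 in 20 such sets if the values are normally distributed. The rule was applied to CPM without a log scale, so the chance rate here is not known. Of the 14, 12 lie in Bern groups and 12 in non-neuronal ones. Bern SI non-neuronal 1, which had the highest pan-neuronal and Cajal marker sums of its group, was high for Cdh2 (109 CPM, the others 4.08 to 13.1), Cdh6 (21 CPM, the others 0 to 2.1) and Pcdh15 (19.2 CPM, the others 2.06 to 4.79). In the same group, number 2 was high for Cdh8 (28.1 CPM, the others 1.8 to 5.07) and Pcdh19 (118 CPM, the others 0 to 2.39), and number 3 for Cdh17 (20.4 CPM, the others 7.74 to 9.54).

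In Bern colon non-neuronal nuclei, number 1 was high for Cdh8 (35.1 CPM, the others 0 to 5.77) and Pcdh10 (41.2 CPM, the others 0.231 to 4.19), number 3 for Pcdh11x (44 CPM, the others 0 to 0.231) and number 4 for Cdh13 (48.4 CPM, the others 10.9 to 16.2). In Bern SI neurons, number 1 was high for Pcdh17 (515 CPM, the others 129 to 160) and number 4 for Pcdh11x (30.7 CPM, the others 1.58 to 4.74). In Crick non-neuronal nuclei, SI number 4 was high for Pcdh17 (65.5 CPM, the others 14.6 to 17.1) and colon number 3 was low for Pcdh19 (3.21 CPM, the others 9.63 to 10.7).

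The difference between colon and SI was tested between the sorts, and it differed for Cdh9 (-8.09), Cdh5 (-6.24), Cdh17 (-5.69), Pcdh11x (-4.44), Pcdh15 (-3.26), Cdh12 (-3.10) and Pcdh17 (-1.86, log2, neuronal minus non-neuronal; edgeR).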

How the results depend on the processing

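Of 46 called results, 35 kept their call in every fit that left out 1 library. Leaving out 1 library at a time gave 18 to 23 genes called for the sorts, 7 to 9 for segment in neuronal and 3 to 9 in non-neuronal nuclei, 0 to 2 for facility in colon neurons, 0 in SI neurons, 2 to 4 in non-neuronal nuclei, 5 to 12 for segment by sort and 0 for segment by facility. Bern libraries fitted alone gave 3 of 17 genes tested by segment in neuronal nuclei, where 101 of all 14406 genes passed. For segment in non-neuronal nuclei they gave 1 of 20 (141 of all 13979 genes). For segment by sort they gave 2 of 27 (155 of all 17618 genes). Crick libraries alone gave 4 of 30 for segment by sort, where 527 of all 20664 genes passed. These fits hold fewer libraries. Without the 6 libraries that stand apart, 3 of 29 genes differed by segment in non-neuronal nuclei and 0 by facility. Of all 20938 genes, 764 and 745 passed in these fits. For facility in colon neurons, DESeq2 size factors and limma-voom gave 2 of 25 each, where 577 and 545 of all 17419 genes passed. No filter gave 2 of 35 (1034 of all 42388 genes) and DESeq2 gave 4 of 25 (1683 of all 17419 genes). All 32 libraries in 1 fit gave 0 of 30 (164 of all 21521 genes). With no filter, 6 of 35 differed by facility in non-neuronal nuclei, where 6373 of all 45254 genes passed. The cause was not tested.

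After removing group means, same-numbered libraries of both sorts correlated at 0.0658 to 0.249 in Crick colon and 0.0617 to 0.459 in Crick SI, with 3 of 4 best with their own number in each. Bern pairs ranged over -0.017 to 0.0596 and Crick pairs of other kinds over -0.29 to 0.211. Among the Bern pairs, both sorts of SI had -0.00509 to 0.0418, again with 3 of 4 best with their own number. Both sorts of Bern colon had 0.0164 to 0.0357, with 2 of 4. Differently numbered libraries of both sorts averaged -0.054 in Crick colon, -0.0608 in Crick SI, -0.00718 in Bern colon and -0.00897 in Bern SI. Since not every pair passed 0.1, a chosen cut, the numbers are not read as pairs. The main fits therefore treat the libraries as independent, which these correlations leave uncertain, most of all in Crick. The replicate block gave 3 genes in place of 5 for segment in non-neuronal nuclei (1273 of all 19164 genes) and 21 for the sorts (9140 of all 21521 genes). It gave 8 for segment in neuronal nuclei (710 of all 17419 genes) and 6 for segment by sort (1119 of all 21521 genes). For segment by facility it gave 0 (1 of all 17419 genes).

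Signs turned for values of Cdh19, Cdh9 and Cdh5 that had not passed (up to 0.80 and down to -1.63 on the log2 scale) and for Cdh10, whose sort difference was -0.21 in Crick alone. With all 32 libraries in 1 fit, Cdh19 by segment in neurons became 0.0204, and Cdh5 by facility became 0.0413 without the 6. Without 1 library, Cdh19 ranged over -1.45 to 0.20 by segment in neurons, -2.94 to 0.80 by facility in colon neurons, -0.39 to 0.0347 by facility in non-neuronal nuclei, -0.61 to 1.13 for segment by sort (-0.14 by limma-voom) and -1.63 to 2.11 for segment by facility, and Cdh9 over -0.66 to 0.28 by facility in SI neurons.

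Over all genes, 960 passed by segment in neuronal nuclei, against 1652 with no filter, 1599 by DESeq2, 101 in Bern and 540 in Crick alone. Of 1787 by segment in non-neuronal nuclei, other settings gave 2948 (DESeq2), 2862 (all 32), 764 (without the 6), 141 (Bern) and 906 (Crick). For facility the counts were 538 in colon neurons (164 to 1683 by setting; 59 to 1149 without 1 library, lowest without Crick 2, with 82 without Crick 1 and 133 without Crick 3), 119 in SI neurons (43 to 397; 11 to 175 without 1 library, lowest without Crick 1, with 24 without Crick 4 and 27 without Crick 3) and 1780 in non-neuronal nuclei (745 to 6373).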
